A study of Mus musculus with 6 samples.

Results

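Long noncoding RNA probes that the array names only by a genomic interval were followed in 6 mouse teratomas, of which 3 received the miR-124a-3p mimic and 3 a negative-control microRNA. Such a name gives a chromosome, a start, an end and a strand, forward (F) or reverse (R), and no gene symbol. Members were all probes that are not array controls and that carry such a name. The rule found 4449 probes in 4061 intervals, of 56605 probes on the array. A total of 3 of these probes were left out because their spots were marked as outliers, and of the remaining 4446 probes 2043, in 1910 intervals, reached a signal well above background on every array of 1 or both groups of 3 and were tested. Positions throughout come from the array annotation (build mm9).

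Teratomas are tumours of pluripotent cells in which several tissues form side by side. Here mouse embryonic stem cells, their line being not given in the sources used here, were injected under the skin of the flank of BALB/c nude mice, which lack a thymus and so most T cells. From a tumour size of at least 100 mm3, about 10 days later, both groups were given intratumoral injections of microRNA complexed with Atelogen QG (15 µg in 100 µL), repeated at 3-day intervals to day 28. Mice were assigned at random, and each tumour was cut in 2 and RNA taken from 1 piece. Tumour and host are both mouse, so an array does not separate their RNA, and a tumour is a mixture in which fewer cells of a type and less RNA per cell cannot be told apart.

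Long intergenic noncoding RNAs are transcripts of the stretches between protein-coding genes that are not translated into long proteins. Many are spliced and polyadenylated like messenger RNAs, are present at low levels and are restricted to few tissues, and many start close to genes of transcription factors, on the opposite strand. Some act on neighbouring genes, some are hosts from which microRNAs are cut, and some annotated as noncoding were later found to encode micropeptides. miR-124 is a neuronal microRNA that lowers the level of messenger RNAs that carry matches to its seed.

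The 60-base probes below are those of several differences described further on, with 1 gene probe for comparison. They stand in the sense of the interval's strand, in lower case, with AATAAA, the common polyadenylation signal, in capitals where it occurs. The first 3 probes lie between Ccdc6 and Slc16a9 or between Pkhd1 and Il17a, 2 stretches that in the RefSeq gene order (GRCm38.p6, used for the order of genes alone) hold skeletal muscle transcripts.
A_30_P01031350, chr10:69679775-69679834, F: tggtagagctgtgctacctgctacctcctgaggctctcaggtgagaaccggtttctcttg
A_30_P01019232, chr10:69682391-69682450, F: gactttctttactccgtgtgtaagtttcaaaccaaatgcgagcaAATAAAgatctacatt
A_30_P01024151, chr1:20672129-20672188, F: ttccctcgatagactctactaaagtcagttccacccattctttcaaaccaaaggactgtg
The next 2 come from overlapping intervals of 1 unnamed locus of chromosome 2.
A_30_P01020448, chr2:77154878-77154937, R: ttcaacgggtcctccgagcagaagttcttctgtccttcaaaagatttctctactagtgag
A_30_P01025786, chr2:77151607-77151666, R: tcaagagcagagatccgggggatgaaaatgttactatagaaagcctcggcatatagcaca
The next probes carry the largest fall and 1 of the rises from background.
A_30_P01018982, chr4:8874435-8874494, F: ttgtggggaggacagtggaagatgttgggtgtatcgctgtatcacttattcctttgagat
A_30_P01031586, chr5:110506159-110506218, F: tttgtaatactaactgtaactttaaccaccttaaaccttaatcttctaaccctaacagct
The last pair reads the same 60 bases of chromosome 19 from opposite strands, the interval probe first and a probe of the gene Tctn3 second.
A_30_P01026524, chr19:40668565-40668624, F: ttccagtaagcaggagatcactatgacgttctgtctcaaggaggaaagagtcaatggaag
A_52_P628355, chr19:40668565-40668624, R: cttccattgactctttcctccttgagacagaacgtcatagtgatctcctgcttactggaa

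AATAAA stood in 177 of the interval probes (3.98%) and in 10.3% of all other probes, read in the probe's own sense. Its reverse complement TTTATT stood in 2.77% and 3.94%. Of the 36 interval probes past the threshold described below, 2 held AATAAA. The median GC content was 45.0% over interval probes and 41.7% over the others. A match is a string of letters in a 60-base window and says nothing of where a transcript ends.

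Intervals ran from 62 to 538251 bases, with a median of 10251 and quartiles of 1383 and 24734. They fell on 20 chromosomes, with 2225 probes on the forward and 2221 on the reverse strand. Without regard to strand there were 3228 spans, of which 831 were named on both strands. Most intervals (3744) held a single probe. For the 4355 probes with a mapped position, the position lay inside the interval and on its strand in every case.

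The word intergenic did not hold for all of these intervals. Only gene probes inside an interval were counted, so an interval within a gene that has no probe there is missed. A probe of a named gene lay on the same strand inside 405 intervals (9.98%), of a protein-coding gene in 139 and of a named long noncoding RNA in 248, and on the opposite strand inside 412 (10.2%). Where both were tested on the same strand (186 pairs), the log2 fold changes of the interval probe and the gene probe had the same sign in 70.4% and a Pearson correlation of 0.501. On opposite strands (150 pairs) these were 61.3% and 0.0596. Both values of a pair come from the same arrays, so these are descriptions.

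Fewer of the interval probes than of the other probes were detected. Per array, 46.2% to 50.3% of them were well above background, against 63.4% to 65.9% of all probes, no spot was saturated, and the arrays' 75th percentiles of intensity ran from 275.4 to 312.9. Levels are given as log2 of the processed intensity minus that array's 75th percentile, so that 0 is the percentile and -3 an intensity 3 doublings below it. Over interval probes, arrays correlated at 0.972 to 0.989 within groups and at 0.952 to 0.978 between groups. The 3 control arrays occupied row 1 of the slide and the 3 miR-124a arrays row 2, so group and slide row cannot be told apart. The skeletal muscle list (35 genes, 34 tested) had 27 genes lower with miR-124a (limma), and its summed level relative to the 75th percentile was 1990 to 3010 in control and 739 to 1100 in miR-124a tumours. The gut epithelium and gastric lists had 6 of 16 and 4 of 10 tested genes lower. The neuron list had 0 of 22 past the threshold with a median log2 fold change of 0.49. Over all tested probes 2.31% were lower and 0.406% higher.

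The comparison of the groups asked whether the mimic changed the transcripts of these intervals. Of 2043 tested interval probes, 28 fell and 8 rose in the miR-124a tumours (limma with Benjamini-Hochberg adjustment over all 35719 tested probes, adjusted p under 0.05), from 33 separate loci. These 36 are 1.76% of interval probes, against 2.72% of all probes tested. By direction, 1.37% of interval probes fell against 2.31% of all, and 0.392% rose against 0.406% of all. Falls made up 77.8% of the interval calls and 85.1% of all calls. Where each group had the probe well above background on at least 1 array, folds ran from 1.48 to 3.82 for falls and from 1.54 to 2.47 for rises. The 8 other calls have lower bounds alone, at least 1.25-fold to at least 4.33-fold for 5 falls and at least 1.65-fold to at least 2.46-fold for 3 rises. Adjusted p ran from 0.0183 to 0.0495. The groups were apart at each of the 36, and at 669 interval probes in all (32.7%, against 34.3% of all probes).

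The count of calls rested on the full set of tumours. Leaving out control 1, 2 or 3 gave 1, 0 and 30 calls, and leaving out miR-124a tumour 1, 2 or 3 gave 0, 0 and 14 (limma). In these fits 364 to 616 interval probes had an unadjusted p under 0.05, against 550 (26.9%) with the 6 tumours together, where 25.9% of all tested probes did. Of the 36 calls, 19 were kept without control 3, 12 without miR-124a 3, 1 without control 1 and 0 without any of the others. Without a filter on dim probes 4 interval probes passed. Over all tested interval probes the median log2 fold change was 0.016, against 0.006 over all tested probes, with 1061 values above 0 and 982 below. The central 90% of interval values lay between -0.60 and 0.72, against -0.65 and 0.62 for other probes. The median standard error was 0.17, against 0.14.

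Probes detected in 1 group alone were commoner among intervals. A total of 24 interval probes (1.17%, against 0.563% of all tested) were well above background on all 3 control arrays and on no miR-124a array, and 7 (0.343%, against 0.196%) the other way round. All 6 arrays had the probe well above background for 1805 of the tested interval probes (88.4%, against 94.0%) and for 25 of the 36 calls, while 5 falls were so on no miR-124a array and 3 rises on no control array. A probe enters the test through the group where it is bright, so these counts describe where the probes lie and are not support for a difference.

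Some of the called falls lay in 2 stretches of the genome that hold muscle transcripts. How many uncalled intervals lie in such stretches was not counted. The interval chr10:69669025-69686275 (F) lies between Ccdc6 and Slc16a9, and the gene that RefSeq lists between those 2 is Mrln, which encodes myoregulin, a micropeptide of skeletal muscle that inhibits the calcium pump of the sarcoplasmic reticulum and was first annotated as noncoding. Its probe A_30_P01031350 had levels of 1.44, 1.00 and 0.91 in the control tumours and -0.74, -0.45 and -0.51 in the miR-124a tumours. Every miR-124a tumour was below every control tumour, and the log2 fold change was -1.69 ± 0.17 (SE, n = 3 per group), a 3.22-fold fall (limma adjusted p = 0.0214).

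The interval chr10:69679644-69682458 (F) overlaps it, and it and the other intervals of this stretch were named after their values were seen. Its probe A_30_P01019232 stood at 2.23, 2.02 and 1.98 in control and 0.41, 0.71 and 0.51 in miR-124a tumours. That is a fall of 2.88-fold (log2 fold change -1.53 ± 0.13, limma adjusted p = 0.0202), with no overlap. Another probe of the same interval, A_30_P01032865, had -0.91 ± 0.19 and did not pass (adjusted p = 0.0588), and the reverse-strand probe A_30_P01018532 fell by 0.72 ± 0.12 (adjusted p = 0.0382). All 4 tested probes of these overlapping intervals were thus lower in every miR-124a tumour than in any control tumour. With normexp background correction followed by quantile scaling (below, normexp), which draws dim values together, the first pair had -1.36 and -1.39 and passed, and the reverse-strand probe had -0.15 and did not (adjusted p = 0.13).

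On chromosome 1, the interval chr1:20669157-20672643 (F) lies between Pkhd1 and Il17a, where RefSeq lists Lincmd1, a long noncoding RNA of muscle differentiation, with Mir206 and Mir133b, microRNA genes of muscle. This interval too was named after its values were seen. Its probe A_30_P01024151 was at 1.05, 0.92 and 0.84 in the controls and at -0.85, -0.69 and -0.24 with miR-124a. The groups were apart, by a log2 fold change of -1.53 ± 0.17 (limma adjusted p = 0.0218). Between these flanking genes RefSeq also lists 4930486I03Rik, Gm15795 and Gm24162, so the order of genes does not say which transcript the probe reads. The part of muscle content in these falls was not tested, and its summed marker level in the groups is the one given above.

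Hlx, a homeobox factor of the mesenchyme around gut and liver, fell together with a neighbouring interval. The interval chr1:186560855-186563399 (F) lies 8.6 kb from its nearest probe and on the other strand. Its probe A_30_P01019461 stood at -1.24, -0.83 and -1.36 in control and -3.06, -2.65 and -2.36 in miR-124a tumours, with no overlap. The fall was 2.92-fold (-1.55 ± 0.22, limma adjusted p = 0.0289), and Hlx itself fell by 0.99 ± 0.18 (adjusted p = 0.0476). Only 1 miR-124a array had the Hlx probe well above background. With normexp the interval probe had -0.81 and passed.

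The largest fall was in an interval with no tested gene within 50 kb. The interval chr4:8865575-8899400 (F) lies between Chd7, a chromatin remodeller, and Clvs1. Its probe A_30_P01018982 was at -2.94, -2.78 and -2.45 in the control tumours and at -5.44, -4.72 and -5.12 in the miR-124a tumours. None of the miR-124a arrays had it well above background, so the fall is given as at least 4.33-fold (limma adjusted p = 0.0202). Such a bound sets the control mean against a floor on each array. That floor is the higher of the dim probe's own signal and the lowest signal of any probe well above background. With normexp this probe had -0.45 and passed (limma adjusted p = 0.0203), so the bound holds for the main scaling alone.

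On chromosome 2, intervals chr2:77152807-77155092 (R) and chr2:77146893-77155643 (R) overlap, and Gm13650, Gm13651, Gm35317 and Gm13649 are the RefSeq names listed between the flanking genes Gm35266 and Zfp385b. Probe A_30_P01020448 of the first went from -2.41, -1.78 and -2.32 to -4.51, -3.96 and -3.71. Probe A_30_P01025786 of the second went from -3.31, -3.30 and -3.39 to -5.39, -5.18 and -4.68, and only 1 miR-124a array had it well above background. The 2 probes thus gave like falls from different positions, -1.89 ± 0.26 and -1.75 ± 0.19 (limma adjusted p = 0.0259 and 0.0218). With normexp they had -0.57 and -0.32 and still passed.

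The naming rule takes the 12 largest falls among the calls by fitted value, and 5 more of these had fitted log2 fold changes between -1.70 and -1.54. A_30_P01032128 (chr11:53592946-53637922, F) fell by 1.70 ± 0.27 (limma adjusted p = 0.0347). The long noncoding RNA Gm12216 lies inside it on the opposite strand, and its probes there had -0.22 and 1.35 and did not pass. A_30_P01030527 (chr6:40693617-40720167, F), between Mgam, a starch-digesting enzyme of the intestinal lining, and Moxd2, went from -2.33, -1.46 and -1.48 in control to -3.11, -3.49 and -3.36 in miR-124a tumours and fell by 1.57 ± 0.25 (adjusted p = 0.0366). RefSeq lists the pseudogene Mgam2-ps in that stretch.

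The other 3 were close to background in the miR-124a tumours. A_30_P01019807 (chr17:32035750-32056000, R), 37.9 kb from the meiosis gene Hsf2bp, fell by 1.65 ± 0.27 (limma adjusted p = 0.0360) and reached well above background on 2 of the miR-124a arrays. A_30_P01018128 (chr19:36699712-36763966, R) was at least 2.28-fold lower (adjusted p = 0.0360). The interval holds a probe of the noncoding RNA Hectd2os on its own strand, with -0.73 (adjusted p = 0.0881), while its nearest gene probe on the opposite strand, of the ubiquitin ligase gene Hectd2, had 0.45 (adjusted p = 0.178). A_30_P01027839 (chr12:52950465-52950990, R), 17.4 kb from Gm5785, was at least 1.37-fold lower (adjusted p = 0.0485). None of these 3 passed with normexp (-0.35, -0.21 and -0.14), and the last did not pass with quantile scaling either. Of the 12, the other 9 passed with normexp and quantile scaling together.

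The rises were fewer, and 3 of the 8 were at probes that no control array had above background. A_30_P01031586 (chr5:110502650-110522475, F) was at -7.16, -7.00 and -5.93 in control and -4.22, -4.46 and -3.72 in miR-124a tumours. No control array had it well above background, so the rise is given as at least 1.87-fold (limma adjusted p = 0.0280). With normexp it had 0.27 and did not pass (limma adjusted p = 0.057). Plcxd1, the nearest gene, is 26.4 kb away and had 0.49 (adjusted p = 0.418).

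A_30_P01026524 (chr19:40663924-40669352, F) rose in the interval that overlaps Tctn3, a gene of the tectonic family needed at the base of the primary cilium. Its levels were -5.44, -5.21 and -5.17 in control and -3.55, -3.90 and -3.77 in miR-124a tumours, at least 2.46-fold higher (limma adjusted p = 0.0202). The Tctn3 probe that is its exact reverse complement had -3.74, -4.02 and -4.21 in control and -4.51, -3.95 and -4.16 in miR-124a tumours. That probe overlapped between groups (-0.22 ± 0.19, limma adjusted p = 0.491). At these 60 bases the forward probe thus passed and the reverse probe did not. No control array had the forward probe well above background. Another probe named Tctn3, A_66_P122910, lies inside the interval on the forward strand and was too dim to be tested. A brighter Tctn3 probe outside the interval, A_52_P433828, had 0.39 ± 0.10. It was higher in every miR-124a tumour than in any control tumour but did not pass (limma adjusted p = 0.0888). With normexp the forward probe had 0.21 (adjusted p = 0.0609).

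A_30_P01023509 (chr13:44217172-44224947, F), with no tested gene within 50 kb, had -3.22, -3.39 and -2.88 in control and -1.70, -2.23 and -1.65 in miR-124a tumours. It rose 2.47-fold (1.30 ± 0.21, limma adjusted p = 0.0354). A_30_P01033303 (chr16:40283097-40284822, F), flanked on both sides by probes of Lsamp, an adhesion protein of limbic neurons, had -1.07, -1.23 and -0.80 in control and -0.25, 0.16 and -0.26 in miR-124a tumours. All 3 miR-124a tumours lay above the controls, a 1.89-fold rise (0.92 ± 0.17, adjusted p = 0.0485).

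The other rises were below 2-fold. A_30_P01032276 (chr8:67349275-67360000, F) had 0.83 ± 0.15 (limma adjusted p = 0.0460). A_30_P01023042 (chr12:55401761-55418611, R), which no control array had well above background, was at least 1.65-fold higher (adjusted p = 0.0229). A_30_P01023557 (chr18:36481237-36481819, F), 20.7 kb from Igip, had 0.63 ± 0.10 (adjusted p = 0.0345). A_30_P01032137 (chr4:3752496-3752901, R), between the tyrosine kinase gene Lyn and the ribosomal protein gene Rps20, had 0.62 ± 0.12 (adjusted p = 0.0489), against 0.00 at the nearest Rps20 probe. It did not pass on the authors' value table or with array weights. With normexp 3 of the 8 rises passed, namely those on chromosomes 13 and 16 and this one, at 0.51, 0.65 and 0.30, whereas 21 of the 28 falls did.

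A further 16 falls lay outside the naming rule, and those described here were chosen after their values were seen. A_30_P01032068 (chrX:50400250-50410825, R) shares its strand with C430049B03Rik, a host transcript of microRNAs, and RefSeq lists Mir450b, Mir450-1, Mir450-2 and Mir542 between that gene and Hprt. It was at 1.64, 1.71 and 1.81 in control and at 0.91, 0.86 and 0.84 in miR-124a tumours, with little spread within either group. Its fall of 0.85 ± 0.09 passed (limma adjusted p = 0.0218), that of C430049B03Rik (-0.97 ± 0.18) missed the threshold at 0.0504, and the forward probe of the same span, A_30_P01026264, was at least 1.52-fold lower, with no miR-124a array well above background, and did not pass (adjusted p = 0.0637).

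A_30_P01020163 (chrX:157038750-157039018, F), 9.8 kb from Phka2, a subunit of phosphorylase kinase, fell by 1.39 ± 0.19 (limma adjusted p = 0.0256), against -0.21 (adjusted p = 0.348) at the nearest Phka2 probe. A_30_P01022747 (chr19:59498190-59531390, R), the interval that holds a probe of Emx2os, fell by 1.03 ± 0.16 (adjusted p = 0.0356). Emx2, the forebrain and urogenital homeobox gene on the other strand, had -0.70 ± 0.18 (adjusted p = 0.0870).

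Over all intervals, 1428 tested probes had a tested probe of a named gene within 50 kb, 848 genes in all, at a median distance of 11.8 kb. The 2 log2 fold changes had the same sign in 60.3% of these pairs, with a Pearson correlation of 0.288, and 2.45% of the neighbouring gene probes were past the threshold. The correlation was 0.314 over 859 pairs on the same strand and 0.241 over 569 on opposite strands. Within 10 kb it was 0.364 over 647 pairs. Pairs share their arrays and some share a gene, so these values are descriptions across intervals.

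Of the 36 called interval probes, 22 had such a neighbour, 17 of them with the same sign, and 14 pairs were both below 0. In 3 pairs, that of Hlx among them, the gene probe passed as well, and in all 3 the gene was on the opposite strand. The 19 others did not have a called gene probe beside them. Of the 3, the pairs other than that of Hlx come from overlapping intervals and share a gene probe. Called probes of the Mrln stretch likewise share a Ccdc6 probe, so these are counts of probes and not of separate loci.

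Few tested interval probes had a gene of the 5 marker lists searched as their nearest tested gene. Only that nearest gene was looked up, so a marker gene farther off than another gene is not counted. No nearest gene within 50 kb was on the gut epithelium, gastric or neuron list. The skeletal muscle list gave 1 span, 19 kb from Acta1, the skeletal actin gene. Its reverse-strand probe A_30_P01024600 (chr8:126396600-126407275), on the strand of Acta1, was at -4.63, -3.74 and -4.23 in control and -5.58, -6.82 and -4.79 in miR-124a tumours, lower in all 3 but with a wide spread (-1.53 ± 0.51, limma adjusted p = 0.134). The forward-strand probe A_30_P01018185 had -0.11 ± 0.21 (adjusted p = 0.750), and Acta1 fell by 1.64 ± 0.27 (adjusted p = 0.0382). Beside neural progenitor genes, the Emx2 interval above fell, and those near Otx2 and Nes had -0.25 and -0.04, with adjusted p of 0.231 and 0.861 (limma).

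The strands of a span were read apart by 247 spans with a tested probe on each. Their log2 fold changes had the same sign in 132 spans (53.4%), with a Pearson correlation of 0.229 and a median absolute difference of 0.28. The probes of a span's strands can lie many kb apart, so strand and position are not separated. Among the 6 spans with a called probe and both strands tested, both values were below 0 in each, and both passed only in the Mrln stretch. At chr11:53592946-53637922 the forward strand had -1.70 and the reverse -0.29, whereas at chr10:39659425-39674200 the reverse strand was the called one, at least 1.79-fold lower with no miR-124a array well above background, and the forward strand had -0.59.

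The 4 spans with the widest difference between strands in fitted values held no called probe. At chr4:124127144-124334840, A_30_P01025799 on the forward strand was at least 2.05-fold lower, since no miR-124a array had it well above background. It starts at 124334128, beside Pou3f1, a neural POU factor. The other forward probe A_30_P01029459 starts at 124329887 and had 0.12. The reverse probe starts at 124200308, with no tested gene within 50 kb, and had 1.11 ± 0.38 (limma adjusted p = 0.142). The fitted strand difference there thus rests in part on a value at background, and strand and position differ together. At chr8:90000619-90061169, forward had 1.23 ± 0.27 and reverse -0.61 ± 0.17 (limma adjusted p = 0.0669 and 0.101). The reverse probe lies 25.1 kb and the forward probe 65.8 kb from the synapse organiser gene Cbln1. At chr19:54011403-54018978, beside the BBSome subunit gene Bbip1, forward had 2.20 ± 0.58 (adjusted p = 0.0921), with control tumours spread from -5.39 to -2.85 and miR-124a tumours from -2.10 to -1.91, and reverse had 0.43; with normexp that forward probe had 0.69 and passed (adjusted p = 0.0411). At chr18:61781410-61788685, a span in the stretch where RefSeq lists Bvht, a noncoding RNA of heart development, the forward probe had 0.42, and the reverse probes had -0.56 (A_30_P01017774) and at least 1.60-fold lower (A_30_P01032470, on no miR-124a array well above background).

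A total of 12 pairs of probes were exact reverse complements of which at least 1 was an interval probe, 8 between intervals and 4 with a named gene. Both were tested in 2 pairs, the Tctn3 pair above and chr3:126989696-127112471. There the reverse probe A_30_P01023003 had 0.79 ± 0.16 (limma adjusted p = 0.0607) and the forward probe A_30_P01027675 -0.03 ± 0.12 (adjusted p = 0.876).

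In the 118 intervals with more than 1 tested probe the median range of log2 fold change was 0.18, it exceeded 1 in 4, and all values had 1 sign in 79 (66.9%). Intervals with exactly 2 tested probes (103) had the same sign in 68.9% and a median gap of 0.18, against 73.9% and 0.14 over 4999 genes with 2 tested probes. The 4 intervals with 3 tested probes that the naming rule takes, ties being broken by position, ranged from 0.06 to 0.29 (chr1:175654606-175672031, R, among interferon-inducible Ifi genes), -0.15 to 0.43 (chr11:112898724-113062945, R, beside 2610035D17Rik), -0.02 to 0.13 (chr12:45415565-45423519, F, beside the phospholipase gene Pnpla8) and -0.03 to 0.15 (chr12:55844075-55898175, R, at the sorting nexin gene Snx6). No probe of these 4 passed.

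The imprinted stretch of chromosome 12 from Meg3 through Rian to Mirg, noncoding RNAs expressed from the maternal copy, holds 14 interval probes between 110782745 and 110987628, of which 12 were tested; it was chosen after the values were seen. Of the 10 on the forward strand, 9 had values below 0, with a range from -0.61 to 0.04 and a median of -0.28. A_30_P01019278 (chr12:110870903-110891628, F) alone passed, from -1.29, -1.11 and -1.34 in control to -1.93, -1.81 and -1.83 in miR-124a tumours (-0.61 ± 0.10, limma adjusted p = 0.0411). Rian probes had 0.24 and -0.32, and the 5 Meg3 probes ran from -0.32 to 1.08, and none of these passed. Mirg probes had -0.27, which did not pass, and -0.64, which did.

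Of 95 listed long noncoding RNAs with a gene symbol, 80 were on the array and 69 were tested. Their median log2 fold change was 0.11. Past the threshold 2 were lower and 2 higher, where 2.31% of all tested probes were lower and 0.406% higher. Hoxd3os1, an antisense transcript of the HoxD cluster, fell by 1.73 ± 0.11 (limma adjusted p = 0.0183), and Mirg by 0.64 ± 0.12 (adjusted p just under the threshold, 0.05 after rounding). These values are of the brightest tested probe of each gene, and another Mirg probe had -0.27 ± 0.12 and did not pass (adjusted p = 0.222). Snhg11, a small nucleolar RNA host gene abundant in neurons, rose by 1.03 ± 0.17 (adjusted p = 0.0383), and Mir124a-1hg, a host transcript of miR-124, by 0.84 ± 0.15 (adjusted p = 0.0470).

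Promoters were the last feature compared. At least 40 bases of the probe lay in a RefSeq promoter window (the sequence around a gene's start, GRCm38.p6) for 71 interval probes, in 42 of them on the strand opposite to the gene. Of the 28 that were tested, 0 passed (limma), where 2.72% of all tested probes did, and 10 had an unadjusted p under 0.05, where 25.9% of all did.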

How the data were processed

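Total RNA of 6 teratomas was labelled with the dye Cy3 for Agilent arrays of 1 colour, per the labels' protocols. The deposited scanner files give processed spot intensity from Agilent Feature Extraction 11.5.1.1, per the file headers and the submitters' processing notes, corrected for background and not scaled between arrays. The authors' deposited value table holds log2 values, which differed from the log2 processed intensity by a constant per array (SD of the difference 0.0029; column medians from -3.07 to -2.97); the tool behind it was not given in the sources used here.

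Spots flagged as outliers were dropped and spots of a probe averaged as log2 intensity minus the array's 75th percentile. The test was that of limma (version 3.58.1, under R 4.3.3, with lmFit and eBayes, no covariates, two-sided) over all 35719 tested probes, and the fit was tested on simulated data. The number of arrays limits the precision, and tumours came from separate mice. The members, lists and naming rule were chosen with earlier results of these data known. The naming rule takes up to 12 falls and 12 rises past the threshold with the nearest gene within 50 kb, the 4 intervals with most tested probes, the 4 widest strand differences, up to 8 named noncoding RNAs past the threshold, and intervals near 5 marker lists. Same-numbered tumours of the groups did not deviate together (correlations of -0.150, -0.025 and -0.0655). Gene names came from the accession through the GRCm38.p6 RefSeq table (33888 probes), the symbol (9457) or an older symbol (488). The 17 alternatives are reported in the closing section. A few members and genes that the naming rule takes are not reported here.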

Additional observations from a re-analysis of the deposited data

How the results depend on the processing

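Of the 36 called interval probes, no log2 fold change turned its sign in an alternative that tested the probe; 25 were tested in all 17, and 11 in 16, since the filter on all 6 arrays left them out. The number of calls stayed within 1.5 times 36 with quantile scaling (45), the authors' value table (35), probes above background on all 6 arrays (33), the brightest probe (44) or the mean (43) per name, and array weights (40). With normexp and quantile scaling 56 passed, 17 of them higher, and 24 of the 36 were kept; with a variance trend and robust estimation 55 passed, 16 of them higher, and 31 were kept. Over all probes these settings called 2112 and 2129, against 970. Without a filter on dim probes 4 of 4446 passed (31 of 56583 overall), 3 lower and 1 higher, with a median log2 fold change of 0.083 against 0.067 over all probes. With the replicate number as a block 0 interval probes passed, 0 lower and 0 higher (1 probe in all, 465 interval probes at an unadjusted p under 0.05), and without variance moderation 0 (386). The numbers do not pair the tumours. Leaving out each tumour gave 0 to 30 calls, 0 to 17 lower and 0 to 13 higher, with a median log2 fold change from -0.027 to 0.035. With 10 kb in place of 50 kb, 647 interval probes had a tested gene nearby. The cause of these changes was not tested. With dim probes, signal over background limits the size of a fold: the 8 called probes that were above background in 1 group alone have bounds only.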
